A study of Rattus norvegicus with 8 samples.

Results

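The annexin transcripts described here are those of Anxa1, Anxa2, Anxa3, Anxa4, Anxa5, Anxa6, Anxa7 and Anxa11 in cultured epithelium of the rat semicircular canal duct (SCCD). Every probe set whose gene symbol in the array annotation was one of these was taken, which gave 12 of the 15866 probe sets other than controls, and 8 of the 10411 genes named by them. Primary cultures of SCCD epithelium from neonatal Wistar rats, grown on permeable supports, were either treated with 100 nM dexamethasone (n = 4) or left untreated as control (n = 4). Dexamethasone is a synthetic glucocorticoid, and the comparison asks which of these transcripts differed in its presence. The RNA of each culture was amplified, and the values used here come from 1 Affymetrix rat expression array per culture, whose signal is an intensity in arbitrary units. The paper lists chips of a type A and a type B, and the titles of these samples end in A. Genes with probe sets on the other type only were therefore not covered. How long these cultures were exposed, and whether they came from separate dissections, is not given in the sources used here, so the tests measure the spread between these samples, which may be technical.

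Annexins are cytosolic proteins that bind acidic phospholipids, phosphatidylserine above all, when calcium rises. Each pairs a conserved core that binds calcium and membrane with an N-terminal tail of its own, and the tail of several members is the docking site for a small EF-hand protein of the S100 family or for sorcin or ALG-2. They act in membrane repair, in vesicle traffic and, once outside the cell, on coagulation, fibrinolysis and inflammation. Annexin A1, first named lipocortin, was described as a glucocorticoid-inducible inhibitor of phospholipase A2, and its peptides act on formyl peptide receptors of leukocytes. In absorptive and secretory epithelia annexins lie at the apical and basolateral membranes, and annexin A4 is known for restraining a calcium-activated chloride conductance.

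Deposited signals of replicates 1 and 2 of both groups had a 2% trimmed mean of 500.1, and those of replicates 3 and 4 had 202 to 335.8, so each array was rescaled to 500. These pairs of arrays are called array sets here, and the labels do not say what set them apart. As a check of the labels, 5 of 5 glucocorticoid-inducible genes (Sgk1, Fkbp5, Tsc22d3, Per1 and Dusp1) were higher with dexamethasone, by 0.99 to 3.19 on the log2 scale (limma). On every array 11 of 11 epithelial markers, of which Krt18 was lower with dexamethasone, were above the level of silent genes, which is the 95th percentile of genes of other tissues on that array (122 to 206). At the strongest probe set of each canal transport marker, Atp1b1 was above that level on 8 arrays, Scnn1b on 7, Scnn1g on 5 and Scnn1a on 4. The anion exchanger Slc26a4 was above it on no array. Among macrophage and leukocyte markers, 6 of 10 were above that level on no array, the leukocyte antigen Ptprc included. Aif1 was above it on 8 arrays, Cd14 on 7, and Csf1r and Lyz2 on 4 each. The summed signal of these markers was 1203 to 4648 with dexamethasone and 933 to 1533 in control. The 10 fibroblast markers, of which 6 were above the silent level on all arrays, summed to 5292 to 8454 with dexamethasone and 6808 to 8700 in control. The part of other cells in the annexin values was not tested. Beta-actin 3' to 5' signal ratios, a sign of RNA quality, were 6.17 to 8.067 on dexamethasone arrays and 8.103 to 13.68 on control arrays. These ranges did not overlap, so a fit with this ratio as a covariate cannot fully separate it from dexamethasone. The highest ratio was on control replicate 3. That array also lay apart on the first principal component of the probe sets tested, at 35.1. The dexamethasone arrays were at -19.9 to -9.87 and the other controls at 6.91 to 11.9. A signal here is an average over all cells of a culture, so fewer cells of a type and less RNA per cell cannot be told apart.

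None of the 12 annexin probe sets differed between the groups at an adjusted p under 0.05, where 2.69% of the 10368 probe sets tested did (limma, Benjamini-Hochberg adjustment). Their adjusted p ran from 0.126 to 0.991. The log2 fold change, dexamethasone over control, was above 0 for 8 of 12 annexin probe sets, against 45.9% of all probe sets, and its median was 0.12, against -0.023 over all. On the signals as deposited, where the median of all probe sets was 0.16 higher, the 4 values below 0 turned and 12 of 12 were above 0. By the median of the 16 ratios between single dexamethasone and control arrays, with no test, 2 annexin probe sets were higher by at least 1.3-fold (7.35% of all probe sets) and 0 were lower (7.06% of all). Before adjustment 2 of 12 (16.7%) had a limma p under 0.05, close to the 16.1% of all probe sets. All 12 were past the filter on low signals, and 10 of them stood above the silent level on all 8 arrays. Thus 8 of 8 annexin genes had at least 1 probe set above it throughout, with and without dexamethasone. The remaining probe sets were 1 of Anxa3, above the silent level on 3 of 8 arrays, and 1 of Anxa7, above it on none.

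**Figure D1:**
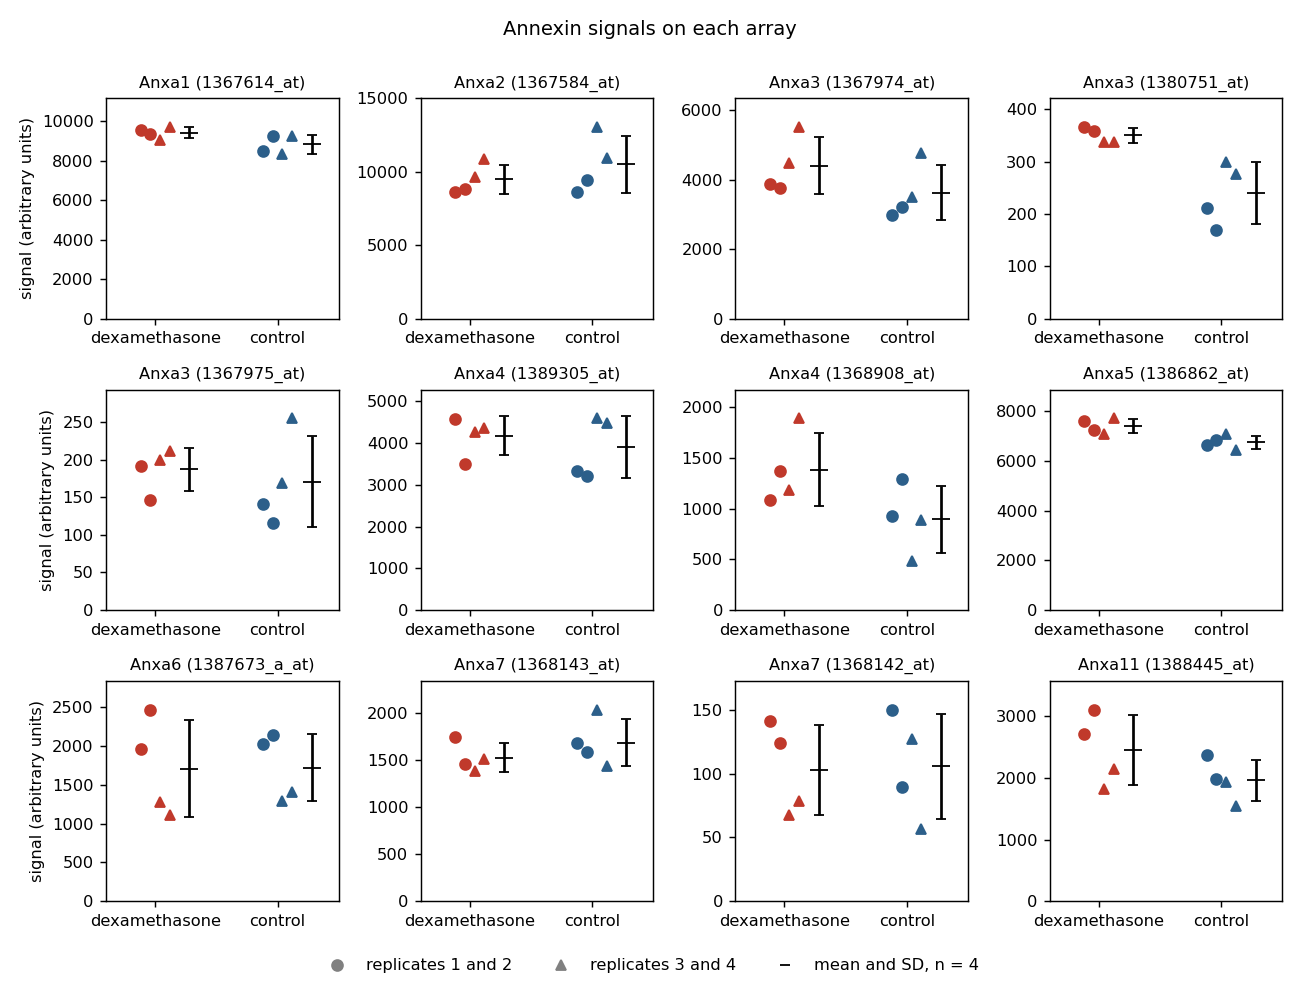
Rescaled signal (arbitrary units, linear axis from 0) of each annexin probe set on the 4 dexamethasone arrays (left in each panel) and the 4 control arrays (right), with circles for replicates 1 and 2, triangles for replicates 3 and 4, and the mean ± SD as bars. The groups are apart for Anxa5 and for 1 probe set of Anxa3 (1380751_at), and circles and triangles are apart for Anxa2 and Anxa6.

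Anxa1 encodes annexin A1, the anti-inflammatory annexin named above. Its probe set, 1367614_at, had signals of 9583, 9358, 9062 and 9719 on the dexamethasone arrays and of 8507, 9245, 8336 and 9235 on the control arrays. These 8 signals lay close together, and dexamethasone replicate 3 was below control replicates 2 and 4, so the groups overlapped. The mean was 9430.5 ± 287 with dexamethasone and 8830.8 ± 478 in control (SD, n = 4 each), a coefficient of variation of 3.05% and 5.41%. The log2 fold change of Anxa1 was 0.096 (SE 0.069, 95% confidence interval, CI, -0.055 to 0.25, limma adjusted p = 0.546), and an exact permutation test of the signals gave a two-sided p = 0.114. As a fold this interval is 0.963 to 1.19, inside the limit of 1.3-fold that the array methods set for a change. Of the 12 annexin probe sets 2 (16.7%), those of Anxa1 and Anxa5, had an interval inside this limit, near the 20.0% of all probe sets. With the array set as a block Anxa2 (-0.31 to 0.034), Anxa6 (-0.28 to 0.18) and 1 probe set of Anxa4 (1389305_at, -0.12 to 0.33) were inside it too. Both array sets gave nearly the same Anxa1 value, 0.095 in replicates 1 and 2 and 0.097 in replicates 3 and 4. With the log2 beta-actin ratio as a covariate it was 0.028 (limma adjusted p = 0.969).

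To show the DNA in front of the gene, the promoter of Anxa1 is printed with that of Anxa2, since these are the promoters of the 7 annexin genes found in the RefSeq table (rat build GRCr8, Anxa6 was not in it) that hold the letters TATAAA, given in capitals. Each runs 5′ to 3′ on the strand of the gene, from 250 bases before the annotated start to 50 after it. The Anxa1 window is chr1:227303683-227303982 on the minus strand, and the Anxa2 window is chr8:78986002-78986301 on the plus strand.
Anxa1: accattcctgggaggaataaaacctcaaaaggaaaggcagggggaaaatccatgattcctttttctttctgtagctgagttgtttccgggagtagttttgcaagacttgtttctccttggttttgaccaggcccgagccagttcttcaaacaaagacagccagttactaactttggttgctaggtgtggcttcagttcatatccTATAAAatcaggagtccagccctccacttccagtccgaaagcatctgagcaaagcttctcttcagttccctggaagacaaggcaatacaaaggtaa
Anxa2: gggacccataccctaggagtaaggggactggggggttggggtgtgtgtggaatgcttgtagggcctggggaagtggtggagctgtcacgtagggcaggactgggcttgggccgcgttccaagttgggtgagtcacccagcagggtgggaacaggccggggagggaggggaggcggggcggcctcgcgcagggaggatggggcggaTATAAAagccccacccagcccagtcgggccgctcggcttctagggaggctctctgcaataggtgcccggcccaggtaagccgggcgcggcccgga
The first base of the motif lay at position -46 in Anxa1 and at -45 in Anxa2, counted from the annotated start. G and C made up 45.0% of the Anxa1 window and 68.0% of the Anxa2 window. TATAAA, searched on both strands, was found in 14.2% of all 33469 promoters of the table. The shorter glucocorticoid receptor motif AGAACA, on either strand, was in 20.7% of promoters and in 0 of the 7 annexin promoters, and the palindrome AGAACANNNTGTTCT, which contains it on both strands, was in 0.0149% and in none of the 7. CCAAT, on either strand, was in the promoters of Anxa4 and Anxa7 and in 37.5% of all.

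Anxa2 encodes annexin A2, which joins with S100a10 (p11) into a complex beneath the membrane and, at the cell surface, binds plasminogen and its activator tPA. Its signals (1367584_at) were 8642, 8803, 9609 and 10835 on the dexamethasone arrays and 8600, 9462, 13048 and 10919 on the control arrays. The highest of them was on control replicate 3, and the other control signals lay within or next to the range of the dexamethasone arrays. Group means were 9472.4 ± 1000 with dexamethasone and 10507.4 ± 1950 in control (SD, n = 4 each). The log2 fold change was -0.14 (SE 0.12, 95% CI -0.41 to 0.13, limma adjusted p = 0.644; exact permutation test, two-sided p = 0.486). Without control replicate 3, the array with the highest beta-actin ratio, the Anxa2 value was -0.027, and with that ratio as a covariate it was 0.069, so its sign is not settled. S100a10, the partner, gave 8051, 8428, 9000 and 9226 with dexamethasone and 7377, 7886, 9486 and 8688 in control. These signals overlapped as well, with both the lowest and the highest on control arrays. The S100a10 difference was 0.058 on the log2 scale (95% CI -0.14 to 0.25, limma adjusted p = 0.811).

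Anxa3 encodes annexin A3, a member best known from neutrophil granules, and both neutrophil markers with a probe set were above the silent level on no array (summed signal 3 to 71 with dexamethasone and 5 to 31 in control). It had 3 probe sets, and each gave a log2 fold change above 0 without passing the test. At the strongest, 1367974_at, the signals were 3860, 3747, 4483 and 5511 on the dexamethasone arrays and 2981, 3222, 3509 and 4755 on the control arrays. Control replicate 4 was above all dexamethasone signals but that of dexamethasone replicate 4, and the other controls were below every dexamethasone signal. The means of this probe set were 4400.1 ± 808 with dexamethasone and 3616.7 ± 789 in control (SD, n = 4 each), with a log2 fold change of 0.29 (SE 0.16, 95% CI -0.053 to 0.63, limma adjusted p = 0.406). Both array sets gave a like value, 0.30 for replicates 1 and 2 and 0.28 for replicates 3 and 4, while leaving out 1 array gave 0.18 (without dexamethasone replicate 4) to 0.43 (without control replicate 4). An exact permutation test gave a two-sided p = 0.171.

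The Anxa3 probe set 1380751_at had signals of 366, 359, 337 and 338 with dexamethasone and of 212, 169, 300 and 277 in control. All dexamethasone arrays were above all control arrays, and the dexamethasone signals lay closer together, at 349.7 ± 14.8 against 239.6 ± 59.8 in control (SD, n = 4 each). A separation in this direction was found for 2 of 12 annexin probe sets (16.7%) and 5.57% of all probe sets tested, and one in the other direction for 0 of 12 and 5.46%. The difference of 1380751_at came to 0.58 on the log2 scale, a fold of 1.5 (SE 0.18, 95% CI 0.19 to 0.97), and did not pass the test (limma adjusted p = 0.126). The exact permutation test gave a two-sided p = 0.0286, the lowest that a design of this size can reach. In replicates 1 and 2 alone 1380751_at had 0.93, which was past the threshold (limma adjusted p = 0.0251, as 4.24% of all probe sets were), and in replicates 3 and 4 alone it was 0.23 (limma adjusted p = 0.626). The difference of these values between the array sets did not pass (limma interaction term, adjusted p = 0.787). The signals of 1380751_at on control replicates 1 and 2, 212 and 169, lay close to the silent level of those arrays (180 and 167). The last probe set of Anxa3, 1367975_at, had signals of 191, 147, 199 and 212 with dexamethasone and 141, 116, 169 and 255 in control. Its groups overlapped, with the lowest and the highest signal both in control, and the log2 fold change was 0.18 (95% CI -0.34 to 0.71, limma adjusted p = 0.767).

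Anxa4 encodes annexin A4, the annexin tied to chloride conductance in epithelia, and its 2 probe sets differed in the size of their values. At the stronger, 1389305_at, the signals were 4571, 3509, 4260 and 4372 on the dexamethasone arrays and 3341, 3208, 4596 and 4490 on the control arrays. In replicates 1 and 2 both dexamethasone signals were above both controls, and in replicates 3 and 4 both were below. The log2 fold change of 1389305_at was 0.11 (SE 0.14, 95% CI -0.19 to 0.40, limma adjusted p = 0.754), and by array set it was 0.29 (replicates 1 and 2) and -0.074 (replicates 3 and 4). Leaving out 1 array gave 0.02 to 0.19, and with the beta-actin ratio as a covariate the value was 0.37 (95% CI 0.029 to 0.71, limma adjusted p = 0.483).

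The other Anxa4 probe set, 1368908_at, had 1090, 1370, 1190 and 1893 with dexamethasone and 926, 1291, 481 and 887 in control. The lowest was control replicate 3, and control replicate 2 was above 2 of the dexamethasone arrays, so the groups overlapped. The means were 1385.8 ± 358 with dexamethasone and 895.9 ± 331 in control (SD, n = 4 each). Its log2 fold change of 0.68, a fold of 1.6, was the highest among the annexin probe sets (SE 0.26, 95% CI 0.11 to 1.25), and did not pass the test (limma adjusted p = 0.223). An exact permutation test gave a two-sided p = 0.0857. By array set, 1368908_at had 0.16 (replicates 1 and 2) and 1.2 (replicates 3 and 4), a difference that did not pass (limma interaction term, adjusted p = 0.787). Without control replicate 3 it was 0.41 (adjusted p = 0.394), and with the beta-actin ratio as a covariate it was -0.10 (adjusted p = 0.912, both from limma). The Anxa3 probe set 1380751_at kept its sign with the same covariate, at 0.92 (limma adjusted p = 0.0989).

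Anxa5 encodes annexin A5, which coats exposed phosphatidylserine, forms lattices at membrane wounds and is used as a stain for dying cells. Its signals (1386862_at) were 7588, 7250, 7079 and 7708 on the dexamethasone arrays and 6652, 6844, 7064 and 6440 on the control arrays. Every dexamethasone signal was above every control signal, although dexamethasone replicate 3 exceeded control replicate 3 by little. The means were 7406 ± 292 with dexamethasone and 6749.7 ± 267 in control (SD, n = 4 each), a coefficient of variation of 3.94% and 3.95%. A log2 fold change of 0.13, a fold of 1.1, resulted (SE 0.07, 95% CI -0.02 to 0.29, limma adjusted p = 0.389; two-sided p of the exact permutation test 0.0286, the smallest possible). The upper bound was a fold of 1.22, under the limit of 1.3. Values of 0.14 in replicates 1 and 2, 0.13 in replicates 3 and 4, and 0.15 with the beta-actin ratio as a covariate were alike in direction and size.

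**Figure D2:**
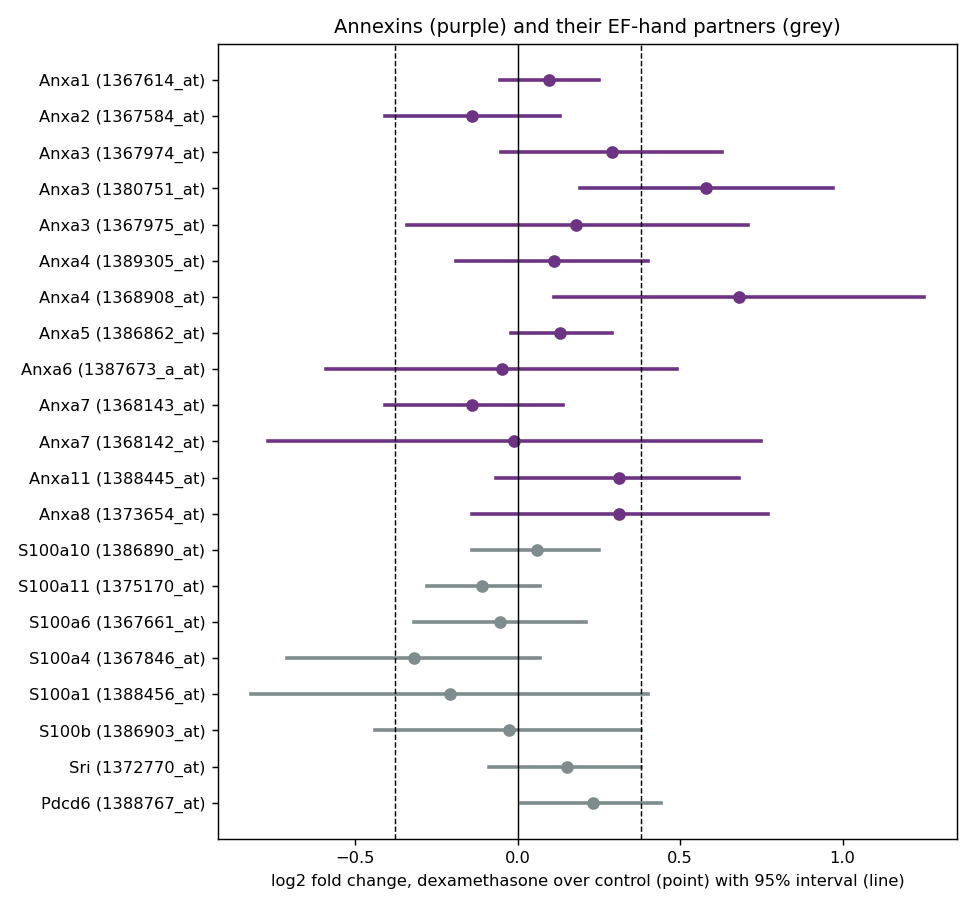
Log2 fold change, dexamethasone over control, with its 95% CI from limma (n = 4 arrays per group) for the 12 annexin probe sets and Anxa8 (purple) and for the 8 EF-hand partners (grey). The dashed lines stand at 1.3-fold up and down (0.379 on the log2 scale), and between them lie the annexin intervals of Anxa1 and Anxa5.

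Anxa6, Anxa7 and Anxa11 encode annexins of vesicle and organelle membranes. Annexin A6 has a duplicated core and acts in endosomal and cholesterol traffic. Signals of Anxa6 (1387673_a_at) were 1959, 2463, 1275 and 1116 on the dexamethasone arrays and 2028, 2144, 1288 and 1409 on the control arrays. In both groups replicates 1 and 2 were above replicates 3 and 4, and the groups overlapped in replicates 1 and 2, while in replicates 3 and 4 both dexamethasone signals were below both controls, the nearest by little. The Anxa6 means were 1703.1 ± 625 with dexamethasone and 1717.2 ± 431 in control (SD, n = 4 each), with a log2 fold change of -0.05 (SE 0.25, 95% CI -0.59 to 0.49, limma adjusted p = 0.949). This interval reached past 1.3-fold on both sides in the fit that leaves out the array set, and with the set as a block it was -0.28 to 0.18, within 1.3-fold. With the beta-actin ratio as a covariate the Anxa6 value was -0.34 (95% CI -1.08 to 0.39).

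Annexin A7, or synexin, aggregates secretory granules. Its stronger probe set, 1368143_at, gave 1747, 1454, 1388 and 1515 with dexamethasone and 1681, 1583, 2033 and 1439 in control. The highest was control replicate 3, and the other arrays of both groups were intermixed. On the log2 scale the difference was -0.14 (SE 0.12, 95% CI -0.41 to 0.14, limma adjusted p = 0.652), and with the beta-actin ratio as a covariate it was 0.037. The weaker Anxa7 probe set, 1368142_at, had signals of 67.8 to 141 with dexamethasone and 56.4 to 150 in control, under the level of silent genes on every array. Its difference of -0.011 (95% CI -0.77 to 0.75, limma adjusted p = 0.991) is thus one between signals that did not stand apart from those of silent genes.

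Annexin A11 has a long, disordered tail and is known from RNA granules and from the last step of cell division. Anxa11 signals (1388445_at) were 2708, 3100, 1825 and 2147 on the dexamethasone arrays and 2368, 1983, 1927 and 1547 on the control arrays. Dexamethasone replicates 1 and 2 were above all controls, while dexamethasone replicate 3 was below 3 of the controls. Means of 2444.9 ± 569 with dexamethasone and 1956 ± 336 in control (SD, n = 4 each) gave a log2 fold change of 0.31 (SE 0.17, 95% CI -0.066 to 0.68, limma adjusted p = 0.423; exact permutation test, two-sided p = 0.2). Within replicates 1 and 2 the Anxa11 value was 0.42 and within replicates 3 and 4 it was 0.20. It was 0.18 without dexamethasone replicate 2, the lowest value with 1 array left out, and 0.44 without dexamethasone replicate 3, the highest.

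Anxa8, an annexin of late endosomes and of some epithelia, was the remaining annexin with an annotated probe set (1373654_at), and Anxa9, Anxa10 and Anxa13 were not analysed here. Its signals were 366, 300, 328 and 530 with dexamethasone and 240, 270, 413 and 298 in control, above the silent level on all 8 arrays. The groups overlapped, with the highest signal on dexamethasone replicate 4, and the log2 fold change was 0.31 (SE 0.21, 95% CI -0.14 to 0.77, limma adjusted p = 0.51). Without dexamethasone replicate 4 it was 0.14, and without control replicate 3 it was 0.47.

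Between the array sets 1 annexin probe set, that of Anxa6, passed the test. Replicates 3 and 4 together were 0.76 lower than replicates 1 and 2 on the log2 scale for Anxa6 (log2 difference -0.76, SE 0.11, adjusted p = 0.00898 from limma), where 3.49% of all probe sets differed between the sets. Anxa2, Anxa3 and Anxa11 came near the threshold without passing it. Replicates 3 and 4 were higher for Anxa2 by 0.32 (SE 0.078, adjusted p = 0.0517) and for Anxa3 at 1367974_at by 0.39 (adjusted p = 0.0635), and the Anxa11 difference was -0.44 (adjusted p = 0.0547, all from limma). Anxa1 and Anxa5 hardly differed between the sets, at -0.014 and -0.0032. For 8 of 12 annexin probe sets the dexamethasone value had the same sign in both sets. The share over all probe sets was not computed, so this count only describes the annexins. No annexin probe set had a different response in the array sets after adjustment, and neither did any of the 10368 probe sets tested (0.0%, limma interaction term), while 2 of 12 annexin probe sets and 5.66% of all had an unadjusted p under 0.05.

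**Figure D3:**
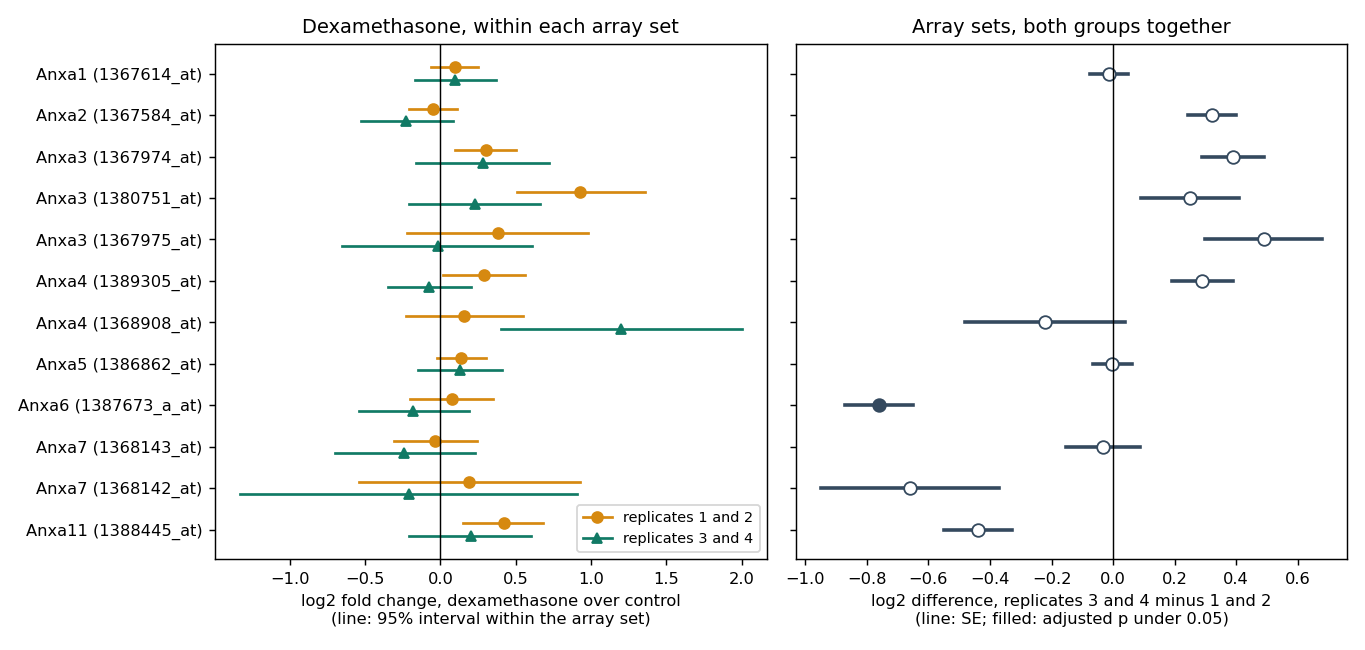
Left, log2 fold change of each annexin probe set, dexamethasone over control, within replicates 1 and 2 and within replicates 3 and 4, with 95% CIs from limma. Right, log2 difference of replicates 3 and 4 minus replicates 1 and 2 over both groups, with its SE, filled where the adjusted p is under 0.05, which holds for Anxa6 at -0.76.

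Of the small calcium-binding proteins that dock on annexins, 8 of 8 had a probe set past the filter and none passed the test (1 had an unadjusted limma p under 0.05), with a median log2 fold change of -0.041. S100a11, a partner of annexin A1, had signals of 10066, 9681, 9191 and 8969 with dexamethasone and of 9837, 9277, 11448 and 10301 in control. The groups overlapped, with the highest signal on control replicate 3, and the difference was -0.11 (95% CI -0.28 to 0.069, limma adjusted p = 0.573). Pdcd6 (ALG-2), which binds annexins A7 and A11, had signals of 3475, 3465, 3689 and 4255 with dexamethasone and of 2944, 3018, 3195 and 3562 in control. Only control replicate 4 was within the range of the dexamethasone arrays, and the difference of 0.23 (95% CI 0.009 to 0.44) did not pass (limma adjusted p = 0.288). The remaining partners, S100a6, S100a4, S100a1, S100b and sorcin (Sri), had log2 fold changes between -0.32 and 0.15.

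Enzymes of the lipocortin pathway gave no called gene either. Of 15 genes in the phospholipase A2 list, the Pafah1b genes included, 13 had a probe set and 9 passed the filter. Of these 9, 2 had an unadjusted limma p under 0.05, as 16.1% of all probe sets did, and the median log2 fold change was 0.028. They were Pla2g12a, which was higher, and Pafah1b3, which was lower. For Pafah1b3 the difference was -0.32 (95% CI -0.58 to -0.06, limma adjusted p = 0.206). Every dexamethasone array was below every control array for it, as for 5.46% of all probe sets. Pla2g4a, the cytosolic phospholipase A2 that releases arachidonic acid, had signals of 140, 105, 116 and 135 with dexamethasone and 147, 145, 155 and 136 in control, a difference of -0.24 (95% CI -0.64 to 0.15, limma adjusted p = 0.564). These signals were above the silent level on 2 of 8 arrays. Pla2g12a, a secreted phospholipase A2 named here after its values were seen, had 464, 348, 309 and 420 with dexamethasone and 319, 190, 170 and 195 in control. Control replicate 1 was the one control within the dexamethasone range, and the difference of 0.85 (95% CI 0.39 to 1.3) missed the threshold (limma adjusted p = 0.0556) but passed it with the array set as a block (adjusted p = 0.0282, where 5.57% of all probe sets passed). With the beta-actin ratio as a covariate the Pla2g12a value was 0.58 (limma adjusted p = 0.566), and neither array set alone passed (adjusted p = 0.174 in replicates 1 and 2, 0.23 in replicates 3 and 4). None of the 7 formyl peptide receptor genes listed had an annotated probe set, so these receptors were not analysed here.

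In membrane repair annexins A1, A2, A4, A5 and A6 act with calpains, dysferlin and the ESCRT proteins. Of 16 genes listed for it 11 had an annotated probe set, and dysferlin was not among them. Of the 10 past the filter 1 rose, and the median was 0.12. This was Cav1, caveolin-1, the coat protein of caveolae. Its signals (1372111_at) were 5251, 4872, 5025 and 5747 with dexamethasone and 3219, 3497, 3440 and 3252 in control. All dexamethasone arrays were well above all control arrays, by 0.64 on the log2 scale (SE 0.083, 95% CI 0.46 to 0.82, limma adjusted p = 0.00148), where 1.88% of all probe sets were called higher. It was 0.59 in replicates 1 and 2, 0.68 in replicates 3 and 4 and 0.62 with the beta-actin covariate (limma adjusted p = 0.0379). The other Cav1 probe set was under the filter and above the silent level on 0 arrays.

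Of genes of plasminogen activation at the cell surface, for which the annexin A2 complex is a docking site, 3 of 6 passed the filter and 1 fell, where 0.81% of all probe sets were called lower. Plau encodes urokinase, and its signals (1387675_at) were 272, 346, 385 and 237 with dexamethasone and 456, 519, 501 and 850 in control. All dexamethasone arrays were below all control arrays, with control replicate 4 the highest, and the log2 fold change was -0.89 (SE 0.21, 95% CI -1.35 to -0.43, limma adjusted p = 0.0488). This call stood at the threshold, since leaving out 1 array gave limma adjusted p values of 0.0393 to 0.129, and the call was lost without any 1 array other than dexamethasone replicate 3. The other Plau probe set (1398287_at) was under the filter and above the silent level on 0 arrays, at -0.27 (limma adjusted p = 0.502 in the fit without a filter). The urokinase receptor Plaur (-0.30, adjusted p = 0.467) and tPA, Plat (-0.11, adjusted p = 0.719, both from limma), did not pass. For phosphatidylserine exposure and uptake, the process that annexin A5 binding marks, none of 8 genes past the filter was called and 1 had an unadjusted limma p under 0.05, with a median of -0.039. That gene was the scramblase Ano6, at 0.28 (limma adjusted p = 0.259).

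**Figure D4:**
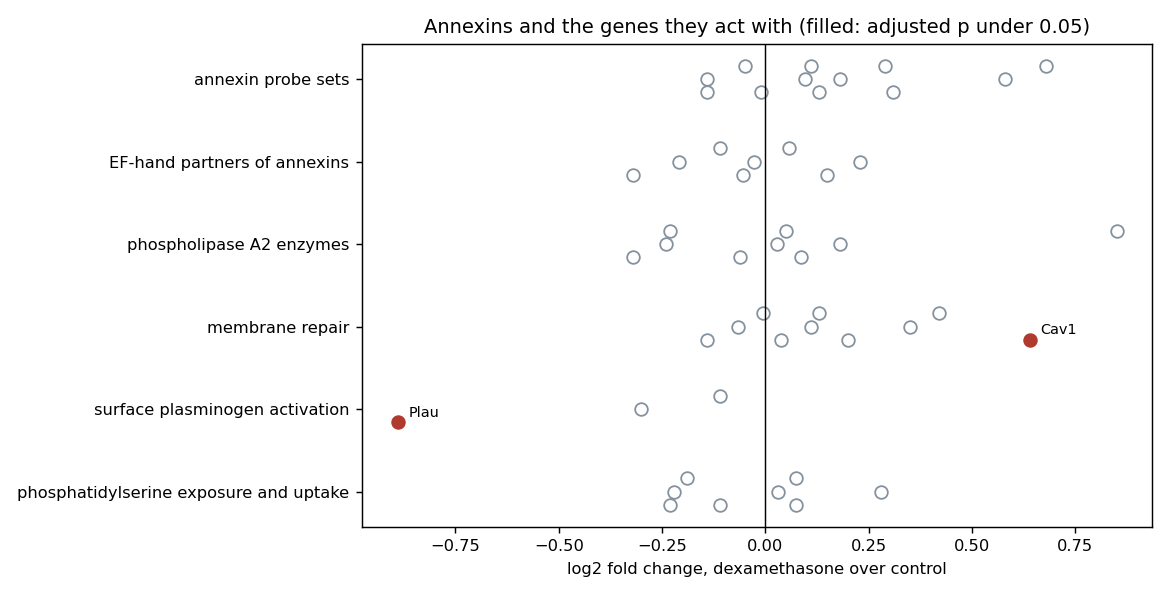
Log2 fold change, dexamethasone over control, of the annexin probe sets and of the strongest probe set of each gene past the filter in the lists of partners, enzymes and pathways (1 point each), with filled red points where the adjusted p is under 0.05. Those are Cav1 at 0.64 in the membrane repair list and Plau at -0.89 in the plasminogen list, and no annexin point is filled.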

How the data were processed

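The authors extracted total RNA from SCCD primary cultures, labelled it in 2 rounds of transcription and computed a signal for each probe set by the Affymetrix statistical algorithms, which the labels describe as scaled to a target of 500. The deposited values are these signals, a linear intensity in arbitrary units, for 15923 probe sets (57 of them controls) on 8 arrays, without detection calls, probe pairs or a genome build. The number of arrays limits the precision.

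The arrays were rescaled, each by its own factor, to a trimmed mean of 500 (2% left out at each end), raised to a floor of 16 and put on the log2 scale. Testing took the 10368 of 15866 probe sets whose signals averaged 100 or more, with limma 3.58.1 in R 4.3.3 (lmFit, then eBayes with trend), two-sided, with Benjamini-Hochberg adjustment at 0.05 over all of them. Values of a probe set under the filter come from a fit without it. Single probe sets were also compared with the exact permutation test over the 70 splits of 4 against 4 arrays. The scripts were tested on simulated data. The platform annotation gives 1 gene to 12783 probe sets, several to 312 and none to 2771. Promoters were matched by symbol for 7 of the 8 genes.

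The annexins, the gene lists and the tests were chosen with earlier results of these data known. Named genes were every annexin probe set, Anxa8, the EF-hand partners, the genes of the other lists with an adjusted p under 0.05, and the 5 probe sets most like Anxa1. Krt18, Scnn1a, Scnn1g, Kdr and Flt1, called in marker lists, are named in the closing section. Pla2g12a, Pla2g4a, Pafah1b3, Plaur, Plat, Ano6, Krt8, Lyz2, C1qa, C1qb, Itgam, Cd14, Cd68, Cd74, Csf1r, Aif1, Ptprc, Atp1b1, Scnn1b and Slc26a4 were named after their values were seen. Alternatives changed the scaling, the floor, the filter, the variance model, the blocks and covariate, the arrays left in and the summary of several probe sets.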

Additional observations from a re-analysis of the deposited data

How the results depend on the processing

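The annexin probe sets past the threshold numbered 0 under every alternative run, leaving out each array included (0 to 0), except that 1 (Anxa3, 1380751_at) passed in replicates 1 and 2 alone. Over all probe sets, 279 passed. On the signals as deposited 38 did (34 higher and 4 lower, against 195 and 84), and this scaling moved the median of all log2 fold changes by 0.16. Without a filter 102 passed, with the array set as a block 578, in replicates 1 and 2 alone 440, in replicates 3 and 4 alone 21, with the beta-actin covariate 65, and without 1 array 180 to 275. With the replicate number as a block 484 passed, and that block changed no annexin call. Whether same-numbered arrays were pairs is not given. Correlations between arrays were taken on log2 signals after the group mean of each probe set was subtracted, so they compare deviations within the groups. They cannot settle the pairing, since arrays of 1 set with different numbers also correlated. Dexamethasone replicates 1 and 4 correlated best with the control of the same number (0.352 and 0.406). Dexamethasone replicate 2 correlated best with control replicate 1 (0.326, against 0.252 for the same number). Dexamethasone replicate 3 did so with control replicate 4 (0.43, against 0.0347 for the same number).

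The sign turned for small values and for 1368908_at of Anxa4, whose 0.68 was the highest among the annexins, and the cause was not tested. On the signals as deposited the log2 fold change was 0.026 for Anxa2, 0.11 for Anxa6, 0.027 and 0.15 for the Anxa7 probe sets and 0.058 for S100a11. With the beta-actin covariate it was 0.069 for Anxa2, -0.10 for Anxa4 (1368908_at), 0.037 and 0.12 for Anxa7 and 0.043 for S100a11. In replicates 1 and 2 alone it was 0.075 for Anxa6, 0.19 for Anxa7 (1368142_at) and 0.047 for S100a11, and in replicates 3 and 4 alone -0.017 for Anxa3 (1367975_at) and -0.074 for Anxa4 (1389305_at). Leaving out 1 array gave -0.25 to 0.13 for Anxa6 and -0.28 to 0.19 for Anxa7 (1368142_at). In the remaining fits, 241 of the 262 of single annexin probe sets, direction and side of the threshold held, and Anxa1, Anxa5, Anxa11 and 1367974_at of Anxa3 turned in none. Averaging the probe sets of each gene gave 0.35 for Anxa3, 0.39 for Anxa4 and -0.074 for Anxa7 (adjusted p = 0.342, 0.147 and 0.907 from limma). With the 90th percentile of silent genes 10 annexin probe sets stood above it throughout, and with their highest signal 9. The same alternatives were run for 7 genes of the lists after their values had been seen. Cav1 lost its call on the signals as deposited and in replicates 3 and 4 alone (0.68, adjusted p = 0.138 from limma), Plau in 16 of 23 fits, and Pla2g12a passed in 5 of 23.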

Other observations

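The epithelial, canal and vessel marker lists held called genes that are no annexins. Krt18, a keratin of simple epithelia, differed by -0.47 on the log2 scale (limma adjusted p = 0.03), and its partner Krt8 had -0.33 (adjusted p = 0.197), with every dexamethasone array below every control array for both and the highest signal on control replicate 3. With the beta-actin ratio as a covariate Krt18 had -0.23 (adjusted p = 0.433) and Krt8 had -0.048, so the call was lost. Scnn1a and Scnn1g, subunits of the epithelial sodium channel, were called higher, and with that covariate neither passed (adjusted p = 0.353 and 0.0899 from limma). Of 6 endothelial markers with a probe set 4 were above the silent level on no array, yet Kdr, a receptor for vascular endothelial growth factor, was higher by 2.00 (adjusted p = 2.98e-05) and Flt1, another such receptor, had -1.96 at its called probe set (adjusted p = 0.02, both from limma). With the covariate Kdr kept its call (1.69, adjusted p = 0.00116) and Flt1 lost it (adjusted p = 0.247, both from limma). The macrophage lysozyme Lyz2 had 3415, 969, 48.8 and 78.4 with dexamethasone and 433, 351, 173 and 88.5 in control. Its highest signal was on dexamethasone replicate 1, where C1qa (102), C1qb (70.2) and Itgam (23.1) were also highest but under the silent level. The other macrophage and leukocyte markers were highest on other arrays at their strongest probe set. Csf1r (196) and Cd68 (103) were highest on control replicate 1, and Aif1 (285) and Cd74 (204) on control replicate 3. The monocyte marker Cd14 had 417, 379, 597 and 782 with dexamethasone and 291, 338, 168 and 314 in control, without overlap, a difference of 0.96 (limma adjusted p = 0.0809), above the silent level on 7 of 8 arrays. Ptprc was under the silent level on all arrays, and the macrophage marker Aif1 was above it on all.

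Anxa1 varied little over the 8 arrays, and the signals most like it were of Vps39 (Pearson r = 0.948 over the 8 arrays), Cnnm4 (0.943), Ip6k2 (0.931), Kazn (0.930) and Zscan26 (0.928). These 5 were taken among probe sets annotated to 1 gene. Of all 10368 probe sets tested, with or without a gene name, 17 besides that of Anxa1 reached an r of 0.9 or more. Whether so many would arise by chance was not tested. These values describe 8 arrays that differ in treatment, array set and RNA quality. None of the 5 genes passed the test between the groups (adjusted p of 0.0947 to 0.731 from limma).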
